A study of Sus scrofa with 9 samples.

Results

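The Wnt ligands, receptors and modulators were taken from the deposited expression table by gene symbol: the WNT, FZD, DKK, SFRP, RSPO, AXIN, GSK3, DVL, TCF7, DAAM, VANGL and PRICKLE families together with LRP5, LRP6, ROR1, ROR2, RYK, PORCN, LGR4 and LGR5, RNF43, ZNRF3, APC, CTNNB1, LEF1 and WIF1. The rule, which reads symbols alone, found 56 of 19643 gene entries. Of these, 37 averaged at least 1 FPKM (sequenced fragments scaled to transcript length and to library size) over all libraries and were tested. The other 19 averaged less and are described by their values. Another 21 symbols that the rule could take are not analysed here, among them WNT4, WNT5A, WNT7A, FZD1, FZD8, DKK2, RSPO1, NKD1 and TCF7L1.

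Wnt proteins are secreted, lipid-modified signals. In the canonical branch a Wnt bound to a Frizzled receptor and an LRP5 or LRP6 co-receptor recruits Dishevelled, the Axin, APC and GSK3 destruction complex stops degrading beta-catenin, and beta-catenin works with TCF and LEF factors at target genes. Other Wnts act through Frizzled, ROR and RYK receptors on cell polarity or on calcium. In embryonic muscle the pathway is known for its part in the induction of muscle precursors and in the patterning of fibres and connective tissue.

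The tissue was longissimus dorsi, a back muscle, of embryonic pigs, with 3 Tibetan and 3 Wujin libraries, both from indigenous Chinese breeds, and 3 from Large White, an introduced breed. No day of gestation is given for any of them, so a difference in stage between the breeds was not tested. Whether the 3 samples of each breed were separate animals is not stated, so every p-value rests on variation among these libraries alone, part or all of which may be technical. One Wujin library is numbered 1, and the others share a header without a number and are called Wujin a and Wujin b.

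The Tibetan libraries stood apart from the rest. Across the tested entries, which are not independent replicates, the correlation of log2(FPKM + 1) was 0.697 to 0.742 between Tibetan and Large White libraries and 0.749 to 0.785 between Tibetan and Wujin libraries, against 0.89 to 0.955 between Wujin and Large White. Wujin 1 correlated at 0.944 and 0.940 with Wujin a and b, which correlated at 0.942 to 0.955 with the Large White libraries, and it held the lowest Wujin value of 26 of the 37 tested members. The fragments behind each value are unknown, but the steps between low values put the relative depths between 1 and 1.22. The 10 highest entries took between 32.6% and 40.8% of all FPKM in the Tibetan libraries, 22.3% and 22.8% in Wujin, and 18.8% and 25.0% in Large White. The median log2 fold change over all 13106 tested entries was -0.77 for Tibetan against Large White, -0.20 for Wujin against Large White and -0.55 for Tibetan against Wujin, so class medians and some members are also given relative to it, as the fitted value minus that median.

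Most measured members of the Wnt set were lower in Tibetan muscle than in Large White muscle, as were most entries of the table. limma's test called 29 of the 37 tested members lower and 2 higher at an adjusted p under 0.05, while it called 63.2% of all tested entries lower and 13.0% higher. The members' median log2 fold change was -1.28, or -0.51 relative to the median of all entries. With libraries scaled by median ratios instead, 20 members were called lower and 4 higher, against 32.0% and 33.3% of all entries. Of the 37 tested members, 7 averaged under 1 FPKM in the Tibetan libraries and none did in the other breeds. These were DKK3, FZD9, PORCN, PRICKLE2, ROR2, VANGL1 and VANGL2, which passed the filter through the Wujin and Large White values. All 7 were called lower in both Tibetan comparisons, a direction that the filter favours, so their calls are not separate support. In bulk tissue fewer cells of a type and less RNA per cell cannot be told apart.

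Tibetan against Wujin muscle gave 26 members lower, 1 higher and 10 not called, with 53.9% of all entries lower and 13.8% higher. The median was -1.004, or -0.45 relative to all entries. Median-ratio scaling gave 20 members lower and 5 higher, against 29.7% and 31.8% of all entries. This comparison and the one above share the Tibetan libraries, so their values are set side by side below and not counted as separate support. Between Wujin and Large White muscle 2 members were called higher, 3 lower and 32 not called, with 1.67% of all entries higher and 4.85% lower. limma gave 17 of all 37 an unadjusted p under 0.05. All entries were not counted at that unadjusted threshold, so the 17 say nothing particular to the set. Median-ratio scaling gave 3 members higher and 1 lower, with 1.79% and 1.16% of all entries. By mean level, 3 of the tested members were highest in Tibetan, 10 in Wujin and 24 in Large White muscle. The same count over all entries, whose medians were shifted the same way, was not made, so whether this order is particular to the set is not known.

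**Figure D1:**
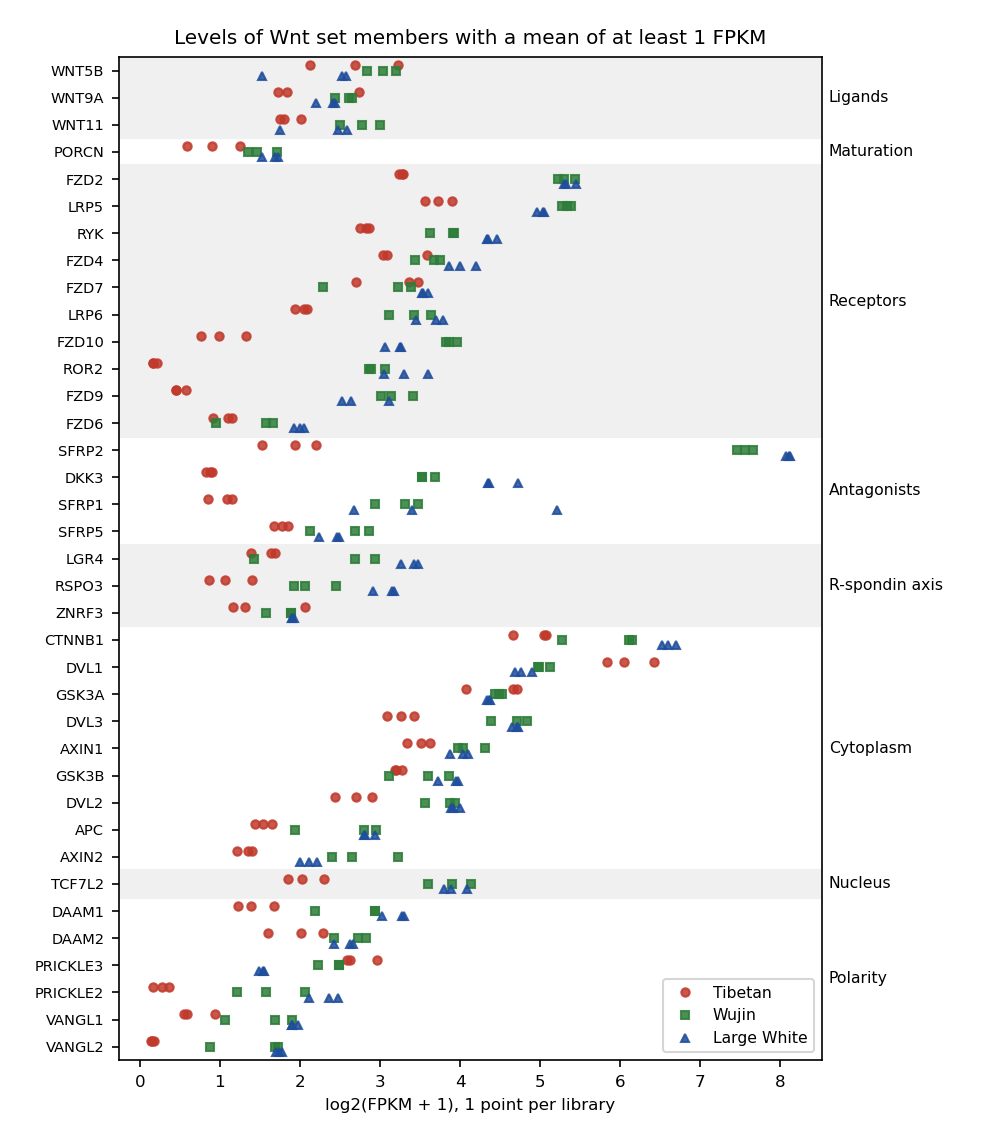
Level of each of the 37 tested members in every library, as log2(FPKM + 1), grouped by class, with circles for Tibetan, squares for Wujin and triangles for Large White. Tibetan circles lie farthest left for most members, by the widest gap for SFRP2, and farthest right for DVL1 and PRICKLE3.

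Of the 12 matched WNT ligands 3 were tested, and none of these 3 was called different between Tibetan and Large White muscle, with a median log2 fold change of -0.25, and limma gave 0 of the 3 an unadjusted p under 0.05. Median-ratio scaling called 1 of them higher and quantile normalization 2. WNT5B, a ligand known mainly from the beta-catenin-independent branch, stood at 5.44, 3.35 and 8.32 FPKM in Tibetan, 8.15, 7.17 and 6.15 FPKM in Wujin and 4.77, 4.94 and 1.87 FPKM in Large White libraries. Tibetan and Large White values overlapped, and the fitted difference of 0.47 ± 0.33 (log2, SE) was not called (limma, adjusted p = 0.220), although median-ratio scaling gave 1.26 and called it (adjusted p = 0.00842). All Wujin values of WNT5B lay above all Large White values, by 0.81 ± 0.33 (adjusted p = 0.130, not called).

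WNT9A, a ligand known from joint and liver development, read 5.64, 2.30 and 2.58 FPKM in Tibetan, 4.42, 5.29 and 5.11 FPKM in Wujin and 3.60, 4.32 and 4.39 FPKM in Large White muscle. Tibetan 1 was above and the other Tibetan libraries were below all Large White libraries. The difference of -0.25 ± 0.24 was not called (adjusted p = 0.363), and without Tibetan 1 it was -0.57 (adjusted p = 0.00634), while quantile normalization turned it to 0.61. WNT11, a ligand of the polarity and calcium branch that is known to orient muscle fibres in the chick, read 2.48, 2.36 and 3.03 FPKM in Tibetan, 4.66, 7.02 and 5.87 FPKM in Wujin and 5.01, 4.54 and 2.35 FPKM in Large White libraries. Every Tibetan value was below every Wujin value (-0.91 ± 0.23, adjusted p = 0.00601), a call lost under median-ratio scaling (-0.33, adjusted p = 0.193). Against Large White, where Large White 3 was the lowest library, WNT11 was not called (-0.42 ± 0.23, adjusted p = 0.123) unless Large White 3 was left out (-0.68, adjusted p = 0.00997).

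The other 9 ligands averaged under 1 FPKM. WNT16, known from limb joints and from bone, was at 0.0617, 0.595 and 0 FPKM in Tibetan, 1.87, 2.02 and 1.12 FPKM in Wujin and 0.300, 0.577 and 0.452 FPKM in Large White muscle. Wujin values lay above those of both other breeds. In a fit with no filter on low values WNT16 was called lower in Tibetan than in Wujin (adjusted p = 0.00149) and just missed the threshold in Wujin against Large White (adjusted p = 0.0502). WNT3, a canonical ligand of limb and neural development, was listed at 0 in all Tibetan libraries, at 0.456 to 0.920 FPKM in Wujin and at 0.447 to 1.12 FPKM in Large White. The fit with no filter called it lower in Tibetan than in Large White (adjusted p = 0.00145) and than in Wujin (adjusted p = 0.00314), and likewise WNT7B (adjusted p = 0.0419 and 0.0145). WNT3A and WNT8B were also listed at 0 in all Tibetan libraries, but in no library of any breed did they reach 0.2 FPKM. WNT2B, WNT10B, WNT2, WNT7B and WNT1 ranged from 0 to 1.45 FPKM.

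PORCN, the acyltransferase that attaches the lipid Wnts need for secretion, read 0.874, 0.505 and 1.37 FPKM in Tibetan, 1.77, 1.55 and 2.29 FPKM in Wujin and 2.23, 1.88 and 2.31 FPKM in Large White libraries. It was called lower in Tibetan than in Large White muscle (-0.73 ± 0.18, adjusted p = 0.00524), close to the shift of all entries, and quantile normalization turned the value to 0.18. Against Wujin the call (-0.60 ± 0.18, adjusted p = 0.0171) was lost without Tibetan 2 (adjusted p = 0.0576) or Wujin b (adjusted p = 0.0616), and quantile normalization gave 0.06.

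The receptors and co-receptors, with 13 matched and 10 tested, were lower in Tibetan muscle in 9 cases against Large White and 7 against Wujin, with 1 and 3 not called, where 63.2% and 53.9% of all entries were lower. Median-ratio scaling gave 6 lower against Large White, and 7 lower and 1 higher against Wujin, with 32.0% and 29.7% of all entries lower. Their class median relative to all entries was -0.82 and -0.93. Summed over the class, the level was 50.05 ± 1.68 FPKM in Tibetan, 151 ± 9.16 FPKM in Wujin and 157 ± 4.79 FPKM in Large White libraries (SD, n = 3 each). FZD2 was the most abundant of the matched Frizzled receptors in Wujin and Large White muscle. It stood at 8.70, 8.43 and 8.72 FPKM in Tibetan, 38.2, 36.3 and 42.4 FPKM in Wujin and 38.9, 42.5 and 38.2 FPKM in Large White libraries. The Tibetan libraries were nearly equal and far below the rest, while Wujin and Large White overlapped. The difference was -2.09 ± 0.10 against Large White (adjusted p = 3.09e-07) and -2.05 ± 0.10 against Wujin (adjusted p = 4.2e-07), or -1.31 and -1.50 relative to all entries.

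ROR2, a receptor tyrosine kinase that binds Wnt5a-type ligands, gave the largest change among the receptors in Tibetan against Large White muscle. It passed the filter only through the Wujin and Large White values. It was at 0.162, 0.125 and 0.124 FPKM in Tibetan, 6.27, 6.43 and 7.36 FPKM in Wujin and 7.29, 11.1 and 8.87 FPKM in Large White libraries. Tibetan was 66.4-fold lower than Large White by mean FPKM, and -3.13 ± 0.15 on the log2(FPKM + 1) scale, which understates changes of low values (adjusted p = 2.34e-07), or -2.36 relative to all entries. RYK was the other tested tyrosine-kinase-like Wnt receptor of this list. It was at 6.10, 5.71 and 6.25 FPKM in Tibetan, 11.3, 14.0 and 14.1 FPKM in Wujin and 19.3, 19.3 and 21.0 FPKM in Large White muscle, with no overlap between any breeds. Its difference was -1.57 ± 0.12 for Tibetan against Large White (adjusted p = 2.98e-06) and -1.004 ± 0.12 for Tibetan against Wujin (adjusted p = 6.29e-05).

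FZD9 and FZD10 are receptors best known from the developing nervous system, and FZD10, unlike FZD2, separated Wujin from Large White. FZD10 read 0.700, 1.51 and 0.991 FPKM in Tibetan, 13.6, 13.2 and 14.6 FPKM in Wujin and 8.48, 8.56 and 7.32 FPKM in Large White libraries. The breeds did not overlap, with Wujin highest: Tibetan was 12.9-fold lower than Wujin (-2.85 ± 0.15, adjusted p = 5.35e-07) and 7.61-fold lower than Large White (-2.16 ± 0.15, adjusted p = 2.12e-06). FZD9 read 0.370, 0.366 and 0.486 FPKM in Tibetan, 9.64, 7.76 and 7.10 FPKM in Wujin and 7.66, 5.24 and 4.73 FPKM in Large White. Here Wujin and Large White overlapped (0.43 ± 0.18, adjusted p = 0.132), and Tibetan was below both, by -2.69 ± 0.18 against Wujin (adjusted p = 1.7e-06) and -2.27 ± 0.18 against Large White (adjusted p = 3.7e-06).

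The co-receptor LRP5, which takes Wnt together with Frizzled, read 10.8, 12.3 and 14.0 FPKM in Tibetan, 39.5, 40.8 and 37.6 FPKM in Wujin and 31.6, 30.1 and 32.1 FPKM in Large White libraries. Tibetan was lowest and Wujin highest without overlap. The fit gave -1.28 ± 0.11 for Tibetan against Large White (adjusted p = 8.79e-06), -1.60 ± 0.11 for Tibetan against Wujin (adjusted p = 2.94e-06) and 0.32 ± 0.11 for Wujin against Large White (adjusted p = 0.0994, not called). Under median-ratio scaling the first of these narrowly missed the threshold (-0.35, adjusted p = 0.0552). LRP6, its paralogue, was lower in Tibetan muscle too (-1.61 ± 0.16 against Large White and -1.36 ± 0.16 against Wujin).

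FZD4 and FZD7 had the smallest fitted changes of the tested Frizzleds in Tibetan against Large White muscle. FZD7, which in the mouse carries Wnt7a signals in muscle stem cells, stood at 9.29, 5.47 and 10.1 FPKM in Tibetan, 3.88, 8.31 and 9.44 FPKM in Wujin and 10.6, 11.1 and 10.5 FPKM in Large White libraries, and no comparison called it. Its Tibetan and Wujin values overlapped, and the Large White values lay above both. FZD4, best known from blood vessels, was at 7.18 to 11.03 FPKM in Tibetan, 9.87 to 12.5 FPKM in Wujin and 13.6 to 17.3 FPKM in Large White muscle. It was called lower in Tibetan than in Large White (-0.78 ± 0.17, adjusted p = 0.00253), but that is close to the shift of all entries and median-ratio scaling turned it to 0.12. FZD6 was called lower against Large White by -0.94 ± 0.19, a call that median-ratio scaling did not keep (-0.32, adjusted p = 0.104).

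Within the 8 matched Frizzleds the composition therefore differed between breeds, and these shares do not depend on library scaling. FZD4 and FZD7 together held 59.5% ± 1.04 of the summed Frizzled FPKM in Tibetan, 22.6% ± 4.05 in Wujin and 31.0% ± 2.46 in Large White libraries (SD, n = 3 each). FZD2 held 30.4% ± 0.536, 47.7% ± 2.58 and 47.5% ± 1.502 in the same order, and FZD9 with FZD10 held 5.20% ± 1.42, 27.0% ± 3.06 and 16.7% ± 2.49. Tibetan did not overlap either breed in any of these shares, and Wujin and Large White did not overlap in the first and the last. Each of those contrasts gave p = 0.1 in an exact two-sided permutation test, which is the smallest p that 3 against 3 libraries allow. The Frizzleds put together in each share were chosen with these values known, so the test lends no support of its own.

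**Figure D2:**
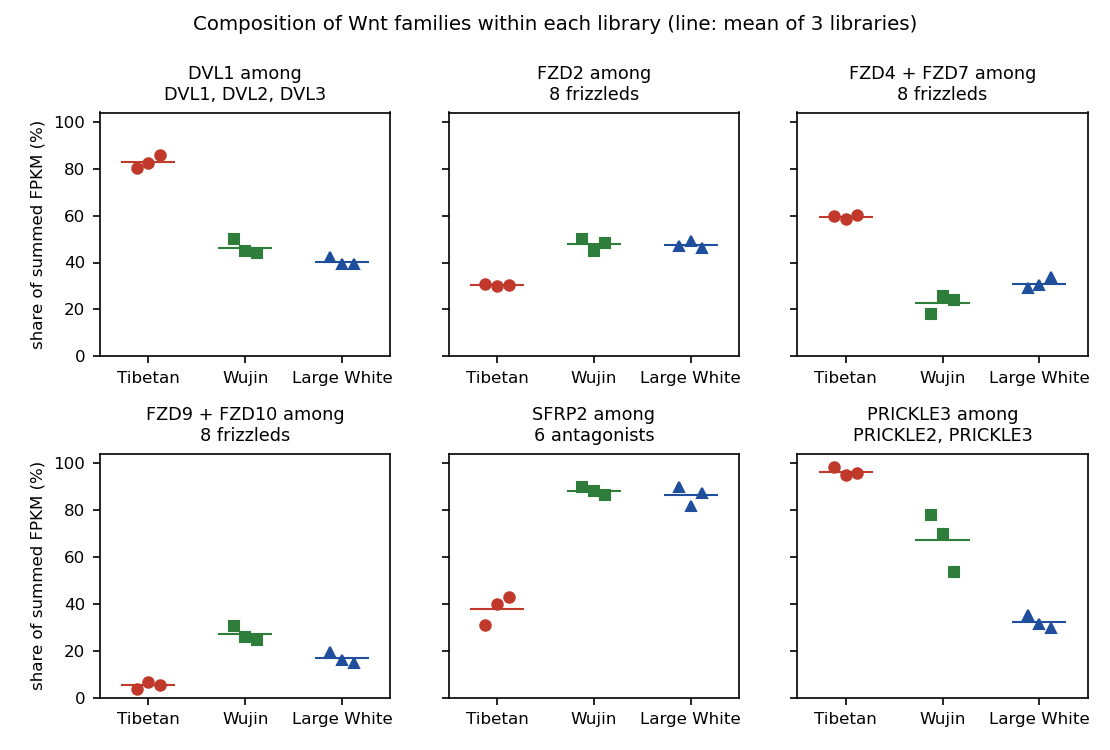
Share (%) of the summed FPKM of a Wnt family held by the named members in each library, with a line at the mean of the 3 Tibetan, 3 Wujin and 3 Large White libraries. In Tibetan libraries DVL1, FZD4 with FZD7, and PRICKLE3 took larger shares of their families, and FZD2, FZD9 with FZD10, and SFRP2 took smaller ones, than in both other breeds.

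Secreted antagonists carried the largest change of the whole set. SFRP2, a Frizzled-like decoy that binds Wnts outside the cell and is abundant in connective tissue cells, stood at 1.88, 2.83 and 3.59 FPKM in Tibetan, 188, 200.1 and 174 FPKM in Wujin and 269, 275 and 276 FPKM in Large White libraries. It was the most abundant member of the set in Wujin and Large White muscle, and the Tibetan libraries were below all others. By mean FPKM Tibetan was 98.9-fold lower than Large White (-6.21 ± 0.16, adjusted p = 1.96e-08) and 67.7-fold lower than Wujin (-5.67 ± 0.16, adjusted p = 4.52e-08). Relative to all entries these differences were -5.44 and -5.12.

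DKK3, a divergent Dickkopf whose direct action on Wnt receptors is disputed, read 0.767, 0.871 and 0.839 FPKM in Tibetan, 10.5, 10.5 and 11.8 FPKM in Wujin and 19.3, 19.6 and 25.4 FPKM in Large White libraries. No breeds overlapped. Tibetan was 26.0-fold lower than Large White (-3.61 ± 0.13, adjusted p = 7.47e-08) and 13.2-fold lower than Wujin (-2.71 ± 0.13, adjusted p = 3.26e-07), or -2.84 and -2.16 relative to all entries.

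SFRP1, a close relative of SFRP2, read 1.23, 0.803 and 1.13 FPKM in Tibetan, 6.66, 10.2 and 8.91 FPKM in Wujin and 5.37, 36.0 and 9.52 FPKM in Large White muscle. Large White 2 lay far above the other libraries of its breed, and Tibetan lay below every other library. The difference was -2.73 ± 0.52 against Large White (adjusted p = 0.00111) and -2.21 ± 0.52 against Wujin (adjusted p = 0.00447). SFRP5 behaved differently, with 2.19, 2.44 and 2.59 FPKM in Tibetan, 3.35, 5.45 and 6.29 FPKM in Wujin and 4.52, 4.60 and 3.73 FPKM in Large White libraries. It was called lower in Tibetan than in Large White (-0.63 ± 0.19, adjusted p = 0.0125), yet median-ratio scaling turned this to 0.11 and quantile normalization to 0.25.

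The makeup of the antagonist pool differed with it. Over the 6 matched antagonists the summed level was 7.19 ± 1.14 FPKM in Tibetan, 213 ± 13.1 FPKM in Wujin and 318 ± 19.2 FPKM in Large White libraries (SD, n = 3 each). SFRP2 held 37.8% ± 6.32 of that sum in Tibetan, 88.1% ± 1.76 in Wujin and 86.3% ± 4.22 in Large White, and SFRP5 held 33.7% ± 2.49, 2.37% ± 0.757 and 1.35% ± 0.168 in the same order. Tibetan overlapped neither breed in either share (exact two-sided permutation test, p = 0.1, the smallest possible). These shares too were chosen with the values known, so the test lends no support of its own. WIF1, which binds Wnts directly, was at 0, 0.153 and 0.101 FPKM in Tibetan, 0.412 to 0.858 FPKM in Wujin and 0.876 to 1.502 FPKM in Large White muscle. DKK1, which blocks LRP5 and LRP6, stayed at or below 0.381 FPKM in every library.

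R-spondins raise Wnt sensitivity by binding LGR receptors and removing the ligases ZNRF3 and RNF43, which otherwise take Frizzleds off the surface. RSPO3, the tested ligand of this axis, was at 1.09, 1.63 and 0.815 FPKM in Tibetan, 2.80, 4.44 and 3.19 FPKM in Wujin and 6.53, 8.06 and 7.84 FPKM in Large White libraries. The breeds stood in that order without overlap. Tibetan differed by -1.97 ± 0.18 from Large White (adjusted p = 1.13e-05) and by -1.04 ± 0.18 from Wujin (adjusted p = 0.000828), a call that quantile normalization ended (-0.38, adjusted p = 0.0873).

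LGR4, the broadly expressed R-spondin receptor, read 1.63, 2.23 and 2.12 FPKM in Tibetan, 1.68, 5.43 and 6.64 FPKM in Wujin and 8.60, 10.1 and 9.72 FPKM in Large White libraries. Wujin 1 fell among the Tibetan values and the other Wujin libraries lay between the breeds. Tibetan was lower than Large White (-1.81 ± 0.33, adjusted p = 0.000852), while Tibetan against Wujin was not called (-0.77 ± 0.33, adjusted p = 0.0654) unless Wujin 1 was left out (-1.23, adjusted p = 8.7e-05). ZNRF3 read 1.48, 1.25 and 3.17 FPKM in Tibetan, 1.99, 2.69 and 2.70 FPKM in Wujin and 2.74, 2.73 and 2.79 FPKM in Large White muscle, and no comparison called it. Tibetan 3 was the highest library, and without it ZNRF3 was lower in Tibetan than in Large White (-0.67, adjusted p = 0.00392).

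Below the filter, RSPO2 was at 0.0590, 0 and 0 FPKM in Tibetan, 0.401 to 1.11 FPKM in Wujin and 0.746 to 3.22 FPKM in Large White libraries. LGR5, a receptor that is also a Wnt target, was listed at 0 in all Tibetan libraries and ranged over 0.0602 to 1.17 FPKM in Wujin and 0.877 to 1.86 FPKM in Large White muscle. RNF43 went the other way, at 0.148, 0.175 and 0.1996 FPKM in Tibetan, 0.0153, 0.0140 and 0.0893 FPKM in Wujin and 0.124, 0.105 and 0.0870 FPKM in Large White libraries. Tibetan did not overlap the other breeds, at levels near the low end of what the table holds.

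Among the 9 cytoplasmic members, all tested, 7 were called lower and 1 higher in Tibetan than in Large White muscle, where 63.2% of all entries were lower and 13.0% higher. The class median was close to that of all entries (-0.02 relative to it). Median-ratio scaling gave 4 members lower and 2 higher, with 32.0% of all entries lower and 33.3% higher. DVL1, 1 of the 3 Dishevelled proteins that pass the signal from the receptor, was the higher one. It stood at 65.3, 55.8 and 84.4 FPKM in Tibetan, 30.7, 33.9 and 30.5 FPKM in Wujin and 28.7, 24.7 and 26.1 FPKM in Large White libraries. Tibetan was above every other library, by 1.32 ± 0.15 against Large White (adjusted p = 4.65e-05) and 1.07 ± 0.15 against Wujin (adjusted p = 0.000229), and relative to all entries by 2.09 and 1.62.

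DVL3 showed the opposite order, with 9.77, 7.53 and 8.59 FPKM in Tibetan, 20.0, 27.6 and 25.2 FPKM in Wujin and 25.2, 24.0 and 25.4 FPKM in Large White muscle. The difference was -1.43 ± 0.14 against Large White (adjusted p = 1.74e-05) and -1.39 ± 0.14 against Wujin (adjusted p = 2.81e-05). DVL2 was lower as well, at 4.40 to 6.44 FPKM in Tibetan, 10.8 to 14.3 FPKM in Wujin and 13.7 to 14.9 FPKM in Large White libraries. DVL1 thus held 82.7% ± 2.82 of the summed Dishevelled FPKM in Tibetan, 46.2% ± 3.25 in Wujin and 40.4% ± 1.65 in Large White muscle (SD, n = 3 each). No breeds overlapped in this share, and each pair gave the smallest possible exact two-sided permutation p of 0.1. The share was chosen with the values known, so this p lends no support of its own.

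CTNNB1 encodes beta-catenin, the transducer of the canonical branch, which also holds cadherin junctions together. It read 32.1, 24.3 and 32.7 FPKM in Tibetan, 37.8, 67.9 and 70.0 FPKM in Wujin and 90.7, 103 and 95.8 FPKM in Large White libraries. Wujin 1 sat close to the Tibetan libraries. Tibetan was lower than Large White by -1.67 ± 0.23 (adjusted p = 0.000131) and lower than Wujin by -0.92 ± 0.23 (adjusted p = 0.00597), the second not kept under median-ratio scaling (-0.19, adjusted p = 0.345). Wujin against Large White was -0.76 ± 0.23 (adjusted p = 0.0703, not called).

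GSK3A, a destruction complex kinase that marks beta-catenin for degradation, was at 24.2, 15.8 and 25.2 FPKM in Tibetan, 21.4, 22.0 and 20.7 FPKM in Wujin and 19.5, 19.3 and 19.7 FPKM in Large White muscle, with overlap and no call (0.13 ± 0.16, adjusted p = 0.502), while median-ratio scaling called it higher against Large White (1.06, adjusted p = 0.00027). AXIN1 and GSK3B were called lower in Tibetan than in Large White (-0.51 ± 0.13 and -0.66 ± 0.18), but median-ratio scaling turned them to 0.39 and 0.23. APC, the large scaffold of the complex, was lower in Tibetan than in Large White (-1.30 ± 0.24, adjusted p = 0.000789) and with median-ratio scaling (-0.56, adjusted p = 0.0239), but not with quantile normalization (-0.42, adjusted p = 0.0545).

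AXIN2 is a scaffold of the complex and also a widely used readout of canonical signalling, since beta-catenin activates it. It read 1.55, 1.32 and 1.63 FPKM in Tibetan, 4.27, 8.33 and 5.25 FPKM in Wujin and 3.63, 3.00 and 3.34 FPKM in Large White libraries. The breeds did not overlap, with Wujin highest and Tibetan lowest. Tibetan against Wujin gave -1.43 ± 0.20 (adjusted p = 0.000175), and Tibetan against Large White gave -0.79 ± 0.20 (adjusted p = 0.00503), which is close to the shift of all entries and turned to 0.11 under quantile normalization.

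TCF7L2, the most abundant of the TCF and LEF factors matched here, stood at 3.92, 2.61 and 3.06 FPKM in Tibetan, 11.2, 16.6 and 13.9 FPKM in Wujin and 12.9, 15.9 and 13.7 FPKM in Large White libraries. Tibetan was below both other breeds, which overlapped. Its difference was -1.86 ± 0.17 against Large White (adjusted p = 1.06e-05) and -1.82 ± 0.17 against Wujin (adjusted p = 1.63e-05). In limb muscle of chick and mouse TCF7L2 is known as a marker of connective tissue fibroblasts.

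LEF1 and TCF7, which averaged under 1 FPKM, were highest in Wujin. LEF1, itself a canonical target, read 0.218, 0.265 and 0.234 FPKM in Tibetan, 2.27, 1.81 and 1.61 FPKM in Wujin and 0.507, 0.692 and 0.229 FPKM in Large White libraries. Every Wujin value was far above the highest Large White value, and the fit without a filter called it higher there (0.98 ± 0.13, adjusted p = 0.0115) and lower in Tibetan than in Wujin (-1.22 ± 0.13, adjusted p = 0.0001). TCF7 read 0.398, 0.431 and 0.310 FPKM in Tibetan, 1.34, 1.37 and 1.34 FPKM in Wujin and 1.03, 0.936 and 0.897 FPKM in Large White muscle, again without overlap, and Wujin against Large White was not called (0.26 ± 0.08, adjusted p = 0.0871).

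Without the filter, 8 of the 19 low members were called lower and none higher in Tibetan than in Large White muscle, with 50.9% of all entries lower and 10.4% higher. Tibetan against Wujin gave 6 lower and 1 higher, RNF43, with 42.1% and 10.5% of all entries. Wujin against Large White gave LEF1 higher and FZD3 lower, with 1.25% and 3.21% of all entries. FZD3, a polarity receptor, was at 0.0296 to 0.122 FPKM in Tibetan, 0.121 to 0.388 FPKM in Wujin and 0.602 to 0.823 FPKM in Large White libraries (Wujin against Large White, -0.41 ± 0.09, adjusted p = 0.0470). ROR1, the relative of ROR2, ranged over 0.0574 to 0.162, 0.225 to 0.794 and 0.548 to 1.58 FPKM in the same order of breeds, and FZD5 did not exceed 0.430 FPKM anywhere.

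**Figure D3:**
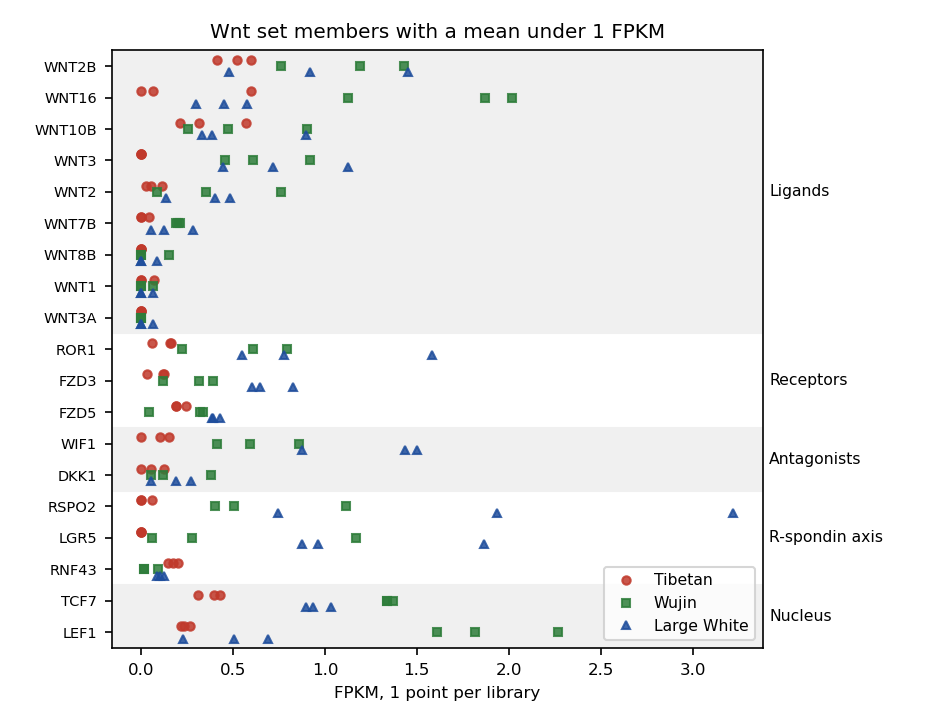
FPKM of the 19 members with a mean under 1 FPKM in every library, grouped by class, with circles for Tibetan, squares for Wujin and triangles for Large White. LEF1, TCF7 and WNT16 are highest in every Wujin library, and RSPO2, LGR5, WIF1 and FZD3 have their highest mean in Large White.

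Planar polarity genes set the orientation of cells within a sheet, with VANGL and PRICKLE proteins on 1 side of each cell and DAAM proteins linking Dishevelled to the cytoskeleton. All 6 matched members were tested, 5 were lower and 1 higher in Tibetan than in Large White muscle, or 4 lower and 1 higher under median-ratio scaling, with 63.2% and 32.0% of all entries lower. PRICKLE3 read 6.80, 5.14 and 4.99 FPKM in Tibetan, 4.62, 4.58 and 3.69 FPKM in Wujin and 1.81, 1.91 and 1.92 FPKM in Large White libraries. No breeds overlapped. Tibetan was 3.00-fold above Large White (1.20 ± 0.14, adjusted p = 4.58e-05), and Tibetan against Wujin was not called (0.32 ± 0.14, adjusted p = 0.0656), while median-ratio scaling called it (0.95, adjusted p = 0.000436).

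PRICKLE2, its paralogue, had the reverse order, with 0.117, 0.284 and 0.212 FPKM in Tibetan, 1.32, 1.97 and 3.18 FPKM in Wujin and 3.31, 4.15 and 4.57 FPKM in Large White muscle. The difference was -2.05 ± 0.21 against Large White (adjusted p = 2.11e-05) and -1.35 ± 0.21 against Wujin (adjusted p = 0.000388). Of the summed FPKM of both genes PRICKLE3 held 96.3% ± 1.80 in Tibetan, 67.1% ± 12.3 in Wujin and 32.1% ± 2.92 in Large White libraries (SD, n = 3 each). No breeds overlapped (exact two-sided permutation p = 0.1 for each pair, the smallest possible), in a share chosen with the values known. VANGL2 was at 0.109, 0.0992 and 0.132 FPKM in Tibetan, 0.839, 2.23 and 2.30 FPKM in Wujin and 2.42, 2.35 and 2.25 FPKM in Large White libraries, or 20.6-fold lower in Tibetan than in Large White by mean FPKM (-1.58 ± 0.21, adjusted p = 0.000123). VANGL1 was lower too (-1.23 ± 0.22, adjusted p = 0.000624), a call that quantile normalization ended (-0.31, adjusted p = 0.110).

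DAAM1 stood at 2.18, 1.61 and 1.34 FPKM in Tibetan, 3.55, 6.65 and 6.63 FPKM in Wujin and 7.14, 8.67 and 8.86 FPKM in Large White libraries. Tibetan was lowest, by -1.77 ± 0.22 against Large White (adjusted p = 6.46e-05) and -1.26 ± 0.22 against Wujin (adjusted p = 0.000704). DAAM2 was at 3.05, 2.04 and 3.89 FPKM in Tibetan, 4.35, 5.59 and 6.08 FPKM in Wujin and 5.31, 5.16 and 4.37 FPKM in Large White muscle. Its call against Large White (-0.60 ± 0.19, adjusted p = 0.0161) was lost without Tibetan 2 (adjusted p = 0.0514), Large White 1 (adjusted p = 0.0568) or Large White 2 (adjusted p = 0.0505), and median-ratio scaling turned it to 0.17.

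**Figure D4:**
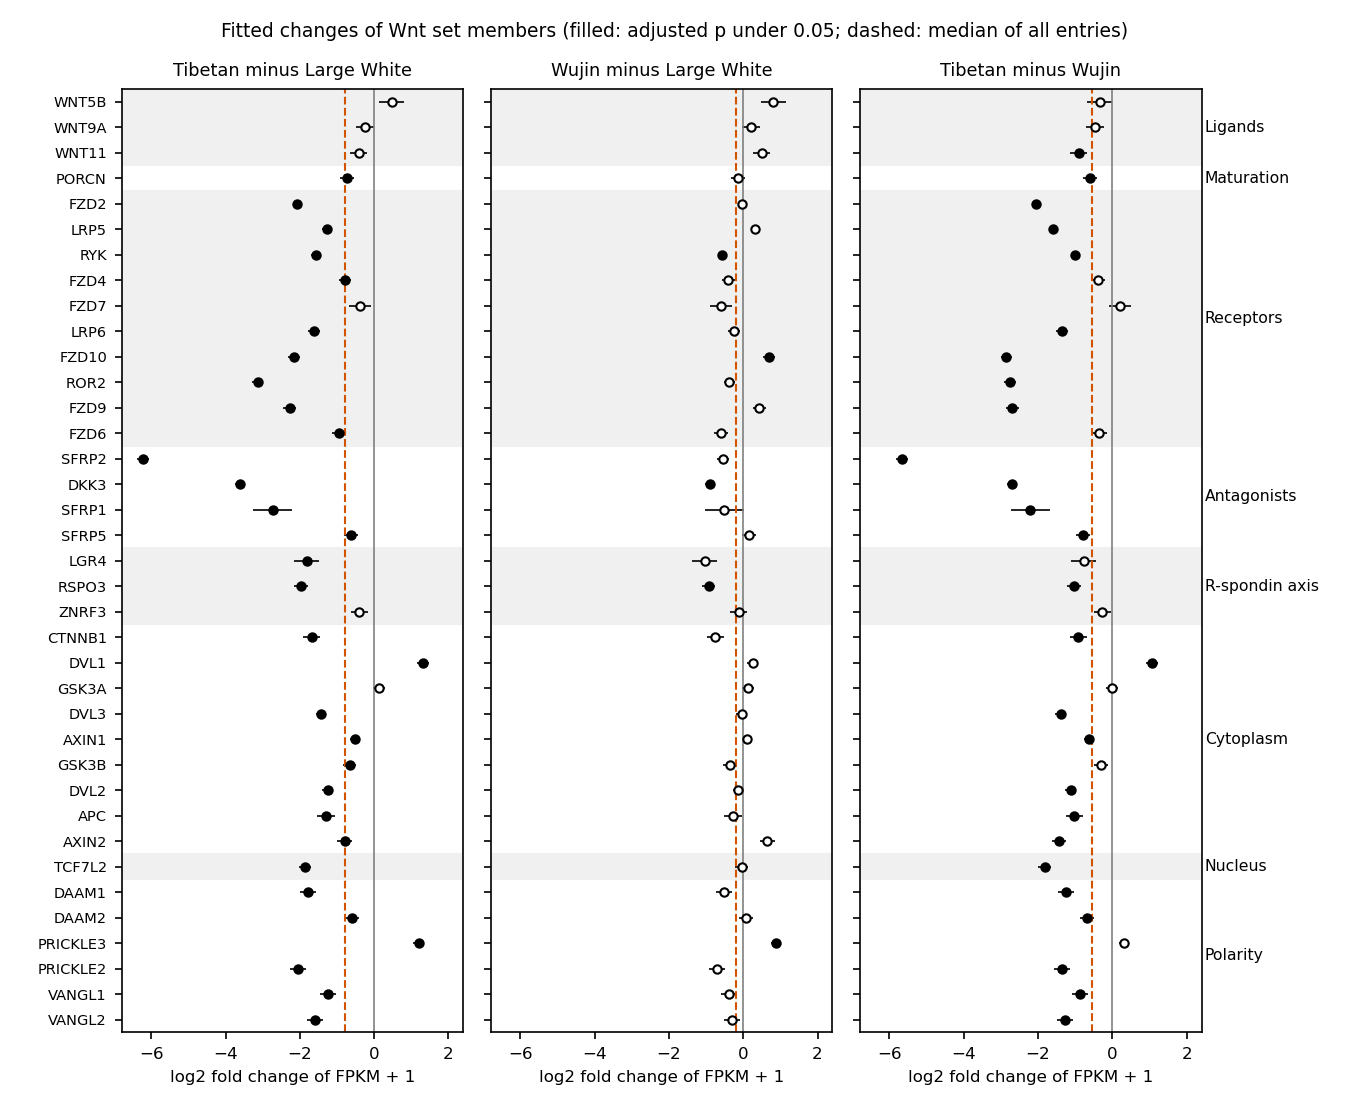
Fitted log2 fold change of FPKM + 1 with its SE for the 37 tested members in 3 comparisons of breeds, filled where the adjusted p was under 0.05, with a dashed line at the median of all tested entries. For Tibetan minus Large White the secreted antagonists SFRP2, DKK3 and SFRP1 lie left of the median and DVL1 and PRICKLE3 right of it, while the called members AXIN1, AXIN2, DAAM2, FZD4, GSK3B, PORCN and SFRP5 lie near it and change sign under at least 1 other scaling.

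Wujin and Large White muscle differed by limma's test in 5 of the 37 tested members. Of the 32 not called, 6 lay wholly above and 9 wholly below Large White in Wujin, and 17 overlapped. How many of all tested entries separated in this way was not counted, so these numbers say nothing particular to the Wnt set. PRICKLE3 was 2.29-fold higher in Wujin (0.87 ± 0.14, adjusted p = 0.0163), and FZD10 was 1.69-fold higher (0.70 ± 0.15, adjusted p = 0.0376). Lower in Wujin were DKK3, 1.96-fold (-0.90 ± 0.13, adjusted p = 0.0116), RSPO3, 2.15-fold (-0.93 ± 0.18, adjusted p = 0.0315), and RYK, 1.51-fold (-0.57 ± 0.12, adjusted p = 0.0347). Median-ratio scaling kept PRICKLE3, FZD10 and DKK3, added AXIN2 (0.80, adjusted p = 0.0414) and did not call RSPO3 (adjusted p = 0.0778) or RYK (adjusted p = 0.0777).

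Each of these calls was lost in at least 1 refit that left out a library, although none of these 5 members changed direction. Calls over all entries fell too, from 219 higher and 636 lower to 23 and 43 without Large White 3. In the refits that lost its call PRICKLE3 stayed at 0.83 to 0.88, against 0.87 with all libraries. Leaving out Large White 1, 2 or 3 left no member higher, as did leaving out Wujin a, and 1 was left without Tibetan 3. For the lower members 1 was left without Large White 1 or 2, none without Large White 3 (DKK3, adjusted p = 0.0542), and 6 were called without Wujin b. Without Wujin 1, PRICKLE3 and AXIN2 were higher (AXIN2, 0.82, adjusted p = 0.0482), FZD10 was not called (adjusted p = 0.0618), and 2 members were lower. SFRP2, lower in every Wujin library than in any Large White library, was not called (-0.55 ± 0.16, adjusted p = 0.0687).

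**Figure D5:**
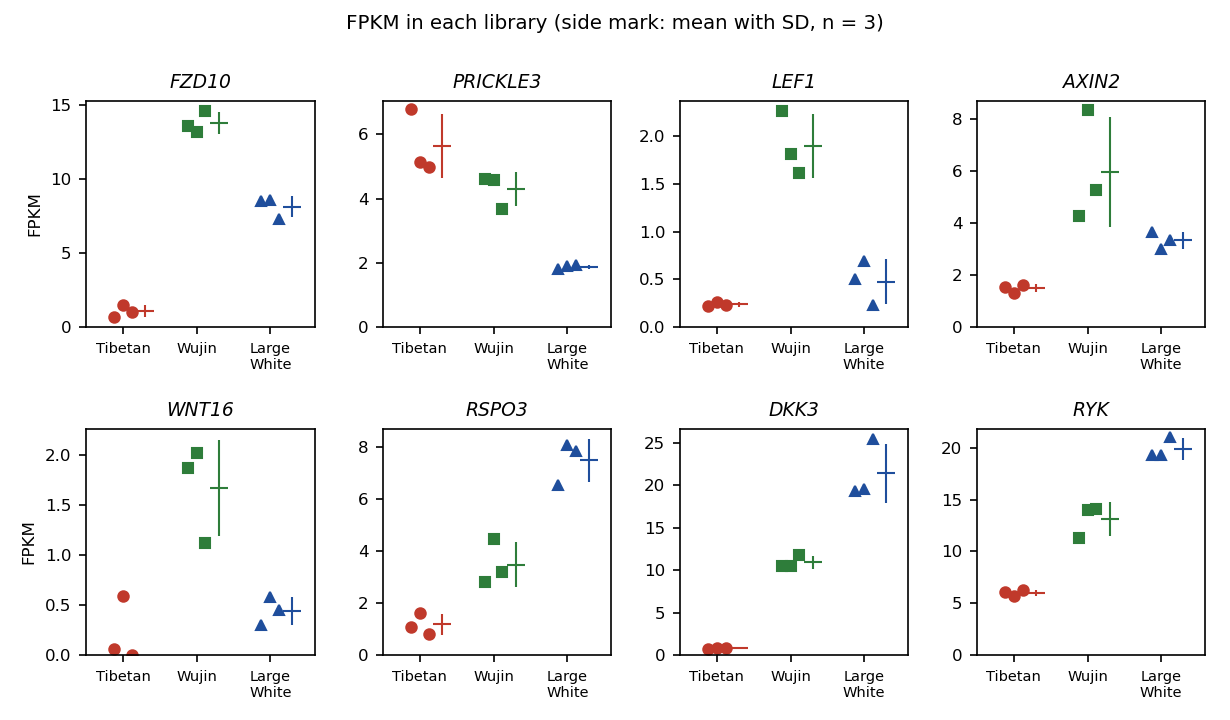
FPKM of 8 members in each Tibetan, Wujin and Large White library, with the mean and SD of 3 libraries beside the points, left out for WNT16 in Tibetan, where 1 library is listed at 0. FZD10, LEF1, AXIN2 and WNT16 are highest in Wujin, RSPO3, DKK3 and RYK are lowest in Tibetan and highest in Large White, and PRICKLE3 has the reverse order.

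Other genes of the pathway were read from 4 lists of textbook members. Among 8 tested secretion and extracellular regulators, 7 were lower and 1 higher in Tibetan muscle in both comparisons, and also under median-ratio scaling, with a median relative change of -0.96 against Large White and -1.03 against Wujin. The same comparisons called 63.2% and 53.9% of all entries lower, or 32.0% and 29.7% under median-ratio scaling. GPC3, a heparan sulfate proteoglycan that modulates Wnt and hedgehog ligands, stood at 14.9, 11.6 and 20.9 FPKM in Tibetan, 126, 286 and 293 FPKM in Wujin and 354, 402 and 375 FPKM in Large White libraries (Tibetan against Large White, -4.53 ± 0.32, adjusted p = 2.16e-06). CTHRC1, a secreted cofactor of Wnt binding to ROR2, was at 0.237, 0.358 and 0.0710 FPKM in Tibetan, 9.92, 9.13 and 12.8 FPKM in Wujin and 11.9, 11.02 and 14.5 FPKM in Large White (-3.46 ± 0.16, adjusted p = 2.22e-07). GPC4 and MESD, the chaperone of LRP5 and LRP6, were lower by -2.75 ± 0.14 and -1.65 ± 0.12 against Large White. Like ROR2, CTHRC1 was below 1 FPKM in every Tibetan library and passed the filter only through the Wujin and Large White values. So did SOSTDC1, another of the 7 lower. The filter favours this direction, so these calls are not separate support.

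FRZB, a secreted Frizzled-related antagonist akin to SFRP1 and SFRP2 that the symbol rule does not take, was the exception and was singled out after its values were seen. It read 17.4, 12.4 and 29.2 FPKM in Tibetan, 7.22, 9.40 and 8.72 FPKM in Wujin and 4.88, 5.60 and 5.47 FPKM in Large White libraries. Tibetan was above every other library, by 1.63 ± 0.25 against Large White (adjusted p = 0.000307) and 1.06 ± 0.25 against Wujin (adjusted p = 0.00492). In Tibetan libraries FRZB was thus more abundant than the 6 matched antagonists of the set together, at 6.11, 7.09 and 8.38 FPKM.

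The planar polarity and calcium list, with 21 tested, divided in Tibetan against Large White muscle, with 11 lower and 5 higher, or 6 lower and 9 higher under median-ratio scaling. Of all entries 63.2% were lower and 13.0% higher, or 32.0% and 33.3% under that scaling. PTK7, a pseudokinase receptor of the polarity branch, stood at 1.02, 0.646 and 0.669 FPKM in Tibetan, 28.7, 29.5 and 30.6 FPKM in Wujin and 45.3, 45.3 and 50.5 FPKM in Large White libraries (-4.76 ± 0.12, adjusted p = 1.79e-08), and was also lower in Wujin than in Large White (-0.65 ± 0.12, adjusted p = 0.0260). RHOA and ROCK1, which carry polarity signals to the cytoskeleton, were lower in Tibetan than in Large White by -1.34 ± 0.10 and -1.44 ± 0.13, as was NFATC4 by -1.91 ± 0.17. PTK7, INVS, NFATC2 and PLCB1 averaged under 1 FPKM in Tibetan muscle and passed the filter through the other breeds, which favours a lower call.

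The 5 higher genes were CAMK2G, CAMK2A, PPP3CA, PPP3CB and NFATC1, all of the calcium branch, of which all but CAMK2G were named after their values were seen. CAMK2G, a calcium- and calmodulin-dependent kinase, read 28.3, 26.7 and 40.9 FPKM in Tibetan, 7.56, 9.16 and 9.99 FPKM in Wujin and 9.36, 10.6 and 10.3 FPKM in Large White libraries (1.54 ± 0.17, adjusted p = 3.59e-05). PPP3CA, a catalytic subunit of calcineurin, read 23.0, 18.7 and 28.6 FPKM in Tibetan, 5.57, 11.4 and 11.1 FPKM in Wujin and 7.53, 8.59 and 10.3 FPKM in Large White muscle (1.31 ± 0.26, adjusted p = 0.00128). NFATC1, a factor that calcineurin sends to the nucleus, read 11.9, 7.95 and 9.81 FPKM in Tibetan, 3.33, 3.80 and 3.22 FPKM in Wujin and 3.17, 3.53 and 5.47 FPKM in Large White (1.12 ± 0.19, adjusted p = 0.000571). These genes also serve calcium signalling of contracting fibres, outside Wnt. Against Wujin 5 of the list were higher as well, with NFATC3 in place of CAMK2A, and 9 lower. Of all entries 13.8% were higher and 53.9% lower. Median-ratio scaling gave 9 of the list higher and 7 lower, with 31.8% and 29.7% of all entries.

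Of 25 tested cytoplasmic and nuclear cofactors 19 were lower and none higher in Tibetan than in Large White muscle. Of all entries 63.2% were lower and 13.0% higher. The cofactors' median relative change was -0.06. Median-ratio scaling divided them into 9 lower and 5 higher, with 32.0% of all entries lower and 33.3% higher. DACT3, a Dishevelled antagonist, was at 0.439, 1.004 and 0.498 FPKM in Tibetan, 8.03, 7.92 and 6.70 FPKM in Wujin and 10.1, 10.1 and 10.4 FPKM in Large White libraries (-2.78 ± 0.15, adjusted p = 4.06e-07). The kinase genes CSNK2A2 and CSNK1G3 and the beta-catenin cofactor BCL9 were lower by -1.68 ± 0.13, -1.53 ± 0.12 and -1.90 ± 0.18. DACT3, CSNK1G3, AMER1 and TBL1XR1 averaged under 1 FPKM in Tibetan muscle and passed the filter through the other breeds, which favours a lower call. Against Wujin 15 cofactors were lower and 2 higher, TLE4 and PYGO1, named after their values were seen. Of all entries 53.9% were lower and 13.8% higher. Median-ratio scaling gave 6 cofactors lower and 8 higher, with 29.7% of all entries lower and 31.8% higher.

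Of 14 tested known target genes 11 were lower and 1 higher in Tibetan than in Large White muscle, and 9 lower and 1 higher than in Wujin, where 63.2% and 53.9% of all entries were lower. Median-ratio scaling gave 7 lower and 4 higher against Large White and 6 lower and 2 higher against Wujin, with 32.0% and 29.7% of all entries lower. MYF5, a myogenic factor that Wnt signals help to induce in the somite, was at 5.86, 5.18 and 3.01 FPKM in Tibetan, 44.3, 56.3 and 51.5 FPKM in Wujin and 49.0, 42.9 and 48.9 FPKM in Large White libraries (-3.11 ± 0.20 against Large White). FST, the secreted activin and myostatin antagonist, and CCN4, a matricellular target, were lower against Large White by -2.35 ± 0.20 and -2.50 ± 0.22. TNFRSF19, a receptor that beta-catenin activates, was lower against Wujin by -1.75 ± 0.18. TNFRSF19 and CCN4 averaged under 1 FPKM in Tibetan muscle and passed the filter through the other breeds, which favours a lower call. CCN1, a matricellular protein that YAP and Wnt signals both induce, went the other way, at 46.0, 40.6 and 48.7 FPKM in Tibetan, 14.2, 15.7 and 16.6 FPKM in Wujin and 13.8, 14.3 and 14.4 FPKM in Large White (1.60 ± 0.11 against Large White). Between Wujin and Large White 2 of the 68 tested genes of the 4 lists were called, PTK7 and GJA1, both lower in Wujin. Of all entries 4.85% were lower and 1.67% higher there. Median-ratio scaling called neither gene.

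Many markers of other cells and of muscle stage also differed between Tibetan and Large White muscle. Of the fibroblast list 7 of 7 tested were lower in Tibetan than in Large White muscle, at summed levels of 321 to 359 FPKM in Tibetan, 3065 to 5617.5 FPKM in Wujin and 5357 to 5994 FPKM in Large White libraries, and none was at 0. Lower as well were 5 of 5 tendon, cartilage and bone markers (1.10 to 1.87, 65.7 to 94.5 and 66.6 to 219 FPKM in the same order, with MATN1 listed at 0 in Tibetan), 7 of 7 markers of dividing cells (1.77 to 2.88, 73.5 to 93.6 and 122 to 127 FPKM), 4 of 4 smooth muscle and pericyte markers (66.7 to 90.7, 576 to 631 and 438 to 582 FPKM), and 2 of 2 red cell markers (146 to 575, 1465 to 3826 and 1919 to 3731 FPKM). Endothelial markers gave 3 of 5 lower, leukocyte markers 2 of 4 lower, and nerve markers 2 lower and 1 higher of 3, where 63.2% of all entries were lower. Every tested marker of dividing cells and of tendon, cartilage and bone averaged under 1 FPKM in Tibetan, as did the nerve markers ERBB3 and TUBB3. These passed the filter through the Wujin and Large White values, which favours a lower call, so their calls are not separate support. Under median-ratio scaling endothelial markers gave 1 lower and 2 higher, leukocyte markers 0 lower and 1 higher, nerve markers 2 lower and 1 higher, and smooth muscle and pericyte markers 3 lower and 1 higher. That scaling called 32.0% of all entries lower and 33.3% higher. The tested fat marker CFD and the tested skin marker TP63 were higher in Tibetan, with fat list sums of 199.7 to 272, 9.42 to 14.8 and 6.03 to 12.5 FPKM and skin list sums of 4.34 to 6.87, 3.59 to 5.26 and 1.86 to 2.26 FPKM. HBZ and KRT1 were also listed at 0 in all Tibetan libraries, and PLIN1 in all Large White libraries. In Wujin against Large White muscle 4 of 7 markers of dividing cells were lower (1 under median-ratio scaling), TP63 was higher, and 0 of 7 fibroblast markers were called by limma, with 2 at an unadjusted p under 0.05 and 0 called under median-ratio scaling. Of all entries 4.85% were lower and 1.67% higher there, or 1.16% and 1.79% under median-ratio scaling. All entries were not counted at the unadjusted threshold.

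Skeletal muscle markers were present in every breed, but the developmental forms differed. MYH3, the embryonic myosin heavy chain, was at 52.6 to 68.9 FPKM in Tibetan, 1203 to 1612 FPKM in Wujin and 1527 to 1933 FPKM in Large White libraries, while MYH8, the perinatal form, was at 2928 to 3906, 99.0 to 117 and 51.2 to 59.5 FPKM. The muscle list summed to 6307 to 48432, 16805 to 17671 and 12290 to 14659 FPKM, with 2 higher and 3 lower of 6 in Tibetan against Large White, and ACTA1 was listed at 0 in Tibetan 2, so a listed 0 can be a missing estimate. The part of these cell types and of stage in the Wnt results was not tested.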

How the data were processed

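RNA of embryonic longissimus dorsi was sequenced in 9 samples, 3 per breed, from libraries made with the TruSeq RNA kit, per the labels' protocols. The authors deposited 1 table of FPKM for the whole series, per the file headers. The submitters' processing notes list TopHat, with no version. Which quantifier, build or annotation was used was not given in the sources used here. Columns were assigned by header, with 0 columns of sample values left unused. Symbols were matched by identifier from a RefSeq name table for 11179 of 19643 entries (56.91%), and 21 of the 77 symbols that the rule takes there were not matched. No sequence or position was used.

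FPKM are not counts, so the 13106 entries averaging 1 FPKM or more were tested on log2(FPKM + 1), with a pseudocount of 1, by limma 3.58.1 in R 4.3.3 (lmFit, contrasts.fit, eBayes with trend). All 9 libraries shared 1 estimate of the spread, p-values were adjusted by Benjamini-Hochberg over all entries tested, and a gene was called at an adjusted p under 0.05. The script was tested on simulated data. Relative changes subtract the median fitted change of all entries. Shares used exact two-sided permutation tests (SciPy 1.17.1), and the members in each share were chosen with their values known. The depth is unknown, so no counting interval is given, and relative depth came from steps among values under 0.2 FPKM.

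The members, classes, 4 related lists, 11 marker lists and tests were chosen with earlier results of these data known. Values in each library were given for up to 3 members of highest mean per class and, per comparison, the 2 called members of largest change in it. Up to 4 related genes of smallest p per list and comparison were named. Members outside that rule were chosen after their values were seen. Same-numbered Tibetan and Large White libraries did not deviate together, so no pairing was assumed. Alternatives were pseudocounts of 0.1 and 5, no filter or a minimum of 5 FPKM, median-ratio, quantile and equal-total scaling, no trend, a fit to the 6 libraries compared, a log2 change of at least 1, each library left out, and a replicate block.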

Additional observations from a re-analysis of the deposited data

How the results depend on the processing

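No called member changed direction when 1 library was left out, while the fitted sign of 7 uncalled differences did, in 10 of these refits. Median-ratio scaling and quantile normalization, which remove the shift of all entries, turned round the sign of fitted differences. Among differences called before or after the change, for Tibetan against Large White median-ratio scaling gave 0.39 for AXIN1, 0.17 for DAAM2, 0.12 for FZD4, 0.23 for GSK3B and 0.11 for SFRP5 on the log2 scale, and quantile normalization gave 0.15 for AXIN1, 0.11 for AXIN2, 0.27 for DAAM2, 0.045 for GSK3B, 0.18 for PORCN, 0.25 for SFRP5 and 0.61 for WNT9A. For Tibetan against Wujin, median-ratio scaling gave 0.067 for AXIN1, 0.71 for GSK3A and 0.37 for GSK3B, and quantile normalization gave 0.34 for GSK3A and 0.064 for PORCN. Differences that stayed uncalled also changed sign, such as Tibetan against Large White under median-ratio scaling for WNT9A (0.51), FZD7 (0.51), WNT11 (0.32) and ZNRF3 (0.28), and Tibetan against Wujin for WNT5B (0.29). Over all single-member values and alternatives 17 changed sign with a call before or after, 55 lost a call with the same sign, 41 gained one, and for 1988 the call did not change, uncalled sign changes included.

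For Tibetan against Large White the members called higher numbered 4 with median-ratio scaling, 5 with quantile normalization and 1 with a minimum of 5 FPKM, and those called lower numbered 19 with quantile normalization and 18 with a minimum of 5 FPKM. Related genes higher numbered 19 and 17 with median-ratio scaling and quantile normalization, and lower 29 and 30. All entries higher numbered 4304, 4155 and, at a log2 change of at least 1, 988, and lower 4139, 4117 and 5161, or 4329 with a minimum of 5 FPKM. For Tibetan against Wujin the members higher numbered 5 with median-ratio scaling, 4 with quantile normalization and 2 with no filter or with equal totals without the 50 highest entries, and lower 15 with a minimum of 5 FPKM. Related genes higher numbered 20 and 18 with median-ratio scaling and quantile normalization, and lower 26 with the first. All entries higher numbered 4109, 3875 and, at a log2 change of at least 1, 985, and lower 3835, 3886 and 3803, or 3907 with a minimum of 5 FPKM.

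For Wujin against Large White the members higher numbered 1 with a pseudocount of 0.1 or a minimum of 5 FPKM, 4 with quantile normalization and 0 at a log2 change of at least 1, and lower 1 with a pseudocount of 0.1 or median-ratio scaling, 7 with a pseudocount of 5 and 0 at a log2 change of at least 1. Related genes higher numbered 1 with a pseudocount of 5, median-ratio scaling or equal totals and 3 with quantile normalization, and lower 9 with a pseudocount of 5, 1 with only the 6 libraries compared, and 0 with a pseudocount of 0.1, median-ratio scaling, equal totals without the 50 highest entries or a log2 change of at least 1. All entries higher numbered 120 with a pseudocount of 0.1, 141 with a minimum of 5 FPKM, 548 with quantile normalization, 116 with 6 libraries and 73 at a log2 change of at least 1. All entries lower numbered 150 with a pseudocount of 0.1 or median-ratio scaling, 1504 with a pseudocount of 5, 261 with a minimum of 5 FPKM, 343 with equal totals, 198 without the 50 highest entries, 164 with 6 libraries and 154 at a log2 change of at least 1. The cause of these moves was not tested.

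Leaving out 1 library at a time gave 2 to 3 members higher and 28 to 30 lower for Tibetan against Large White, 1 to 2 and 25 to 30 for Tibetan against Wujin, and 0 to 2 and 0 to 6 for Wujin against Large White. Related genes numbered 6 to 7 and 42 to 51, 7 to 11 and 37 to 44, and 0 to 0 and 0 to 8 in the same order. All entries numbered 1510 to 1807 and 7695 to 8603, 1592 to 1868 and 6342 to 7832, and 23 to 253 and 43 to 1380. With the replicate number as a block, Tibetan against Large White gave 2 members higher and 29 lower, and 1713 entries higher and 8351 lower. The same-numbered libraries' deviations correlated at 0.013, -0.023 and -0.076, so the numbers did not pair them. Wujin columns a and b carry no number, so no block was possible with Wujin. For the shares, 3 against 3 libraries limit every exact p to 0.1 or more.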
